A study of Drosophila melanogaster with 72 samples.

Results

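The antioxidant genes described here are 9 genes listed by name in the deposited count files: the superoxide dismutases Sod and Sod2, the catalase Cat, the peroxiredoxins Jafrac1 and Prx5, the thioredoxin reductase Trxr-1, the glutathione synthesis gene Gclc and the regulators cnc and Keap1. They were chosen by name from 15682 listed genes, and all 9 were present. Their RNA was measured by stranded mRNA sequencing of skeletal muscle of the fruit fly Drosophila melanogaster in 72 libraries, in 3 experiments. The age experiment (18 libraries) holds the delayed-aging strains O1 and O3 and their parental strain B3, each with 3 libraries at 6 weeks and 3 at 1 week of age. The day course (31 libraries) holds the same 3 strains at zeitgeber time (ZT, hours of the light schedule) 0, 6, 12 and 18, with 3 libraries a group except 2 in B3 and O3 at ZT6, 2 in B3 at ZT18 and 1 in O1 at ZT18. The transgene experiment (23 libraries) holds mhc>timeless, in which the muscle driver Mhc-Gal4 expresses the clock gene timeless, and the driver control mhc, which carries Mhc-Gal4 alone, at the same 4 times, with 3 libraries a group except 2 in mhc>timeless at ZT0. The labels give no hour of day for the age experiment, no age for the other experiments and do not say whether libraries of a group came from separate flies or cultures. The p-values therefore measure library-to-library spread, which may be technical.

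Superoxide formed in mitochondria and cytosol is turned into hydrogen peroxide by superoxide dismutases, Sod2 being the manganese enzyme of the mitochondrial matrix and Sod the copper-zinc enzyme of the cytosol. Hydrogen peroxide is removed by catalase in peroxisomes and by peroxiredoxins, which are reduced again by thioredoxin, while Trxr-1 reduces thioredoxin with electrons of NADPH and in flies stands in for the missing glutathione reductase. The long isoform of cnc, CncC, is the fly counterpart of mammalian Nrf2, a transcription factor that switches on detoxification and antioxidant genes, and Keap1 binds it and holds it in check.

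Gene counts per library were 15.5 to 35.7 M (M, mega) for age, 39.5 to 90.0 M for the day course and 53.1 to 170 M for the transgene libraries, with 53.1 to 71.9 M in mhc before ZT18 and 124 to 170 M in all others. All 11 listed muscle markers had counts, and their summed level was 12076 to 30439 CPM (counts scaled to a common library total of 1 M) in the age libraries, 15647 to 24192 CPM in those of the day course and 20936 to 24818 CPM in the transgene libraries. RNA of other organs was present too: 12 gut markers summed to 3051 to 16389 CPM in the age experiment, and 10 testis markers to 213 and 574 CPM in libraries 1 and 2 of O3 at 1 week and to 161 and 163 CPM in libraries 2 and 3 of O1 at 1 week, against 13.9 to 55.4 CPM in B3. In the transgene experiment, timeless (tim) itself ran from 891 to 1611 CPM in mhc>timeless, against 144 to 817 CPM in mhc. In bulk samples, fewer cells of a type and less RNA per cell cannot be told apart.

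Per kilobase of exon, the median level in the age experiment was 571 CPM for Sod, 374 CPM for Cat, 357 CPM for Sod2, 232 CPM for Jafrac1, 127 CPM for Trxr-1, 45.6 CPM for cnc, 42.1 CPM for Gclc and 8.50 CPM for Keap1, with exon lengths from the Ensembl BDGP6.54 annotation. The enzymes that act on superoxide and peroxide thus ran highest per length and Keap1 lowest. The second peroxiredoxin gene, Prx5, was listed at 0 in all 72 libraries, which by counting alone allows up to 3 reads, or 0.194 CPM in the shallowest library. In the same annotation all 1449 exon bases of Prx5 are also exon bases of CG7215 on the same strand, and CG7215 was listed at 0 in all libraries as well. How the counting treated reads in 2 genes is not stated in the labels or headers, and whether the overlap set the 0 was not tested, so Prx5 is not described further. The other 8 genes passed the low-count filter in every experiment. Trxr-1 overlaps the gene sni on the opposite strand and cnc overlaps fzo on its own strand in that annotation, and whether this lowered their counts was not tested.

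With age, Sod2 RNA was lower and the RNA of Trxr-1, cnc and Jafrac1 higher at 6 weeks than at 1 week in O1, O3 and B3. The share of reads that fell in no gene also differed, at 13.0 to 17.6% in the 6-week and 20.8 to 27.9% in the 1-week libraries. Its part in the age changes was not tested. Every gene was tested between groups with edgeR's quasi-likelihood test, and a gene is called when its Benjamini-Hochberg adjusted p over all tested genes is under 0.05. In O1 at 6 weeks 3 of the 8 tested antioxidant genes were called higher and 1 lower than at 1 week, where 10.4% and 12.4% of all tested genes were called higher and lower. In O3 4 were called higher and 1 lower, where 22.8% and 27.4% of all tested genes were. In B3 4 were called higher and 1 lower, where 21.8% and 20.0% of all tested genes were. The median log2 change of the 8 genes was 0.07 in O1, 0.31 in O3 and 0.25 in B3, against -0.026, -0.002 and -0.028 over all tested genes in the same strains. The O1 calls of Trxr-1, cnc and Jafrac1 and the O3 calls of Sod2, Trxr-1 and Gclc were lost when the testis-rich 1-week libraries were left out, with the values given beside the markers. In O1 the 1-week library then left had lower testis markers than every 6-week library, so the testis difference was not removed.

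**Figure D1:**
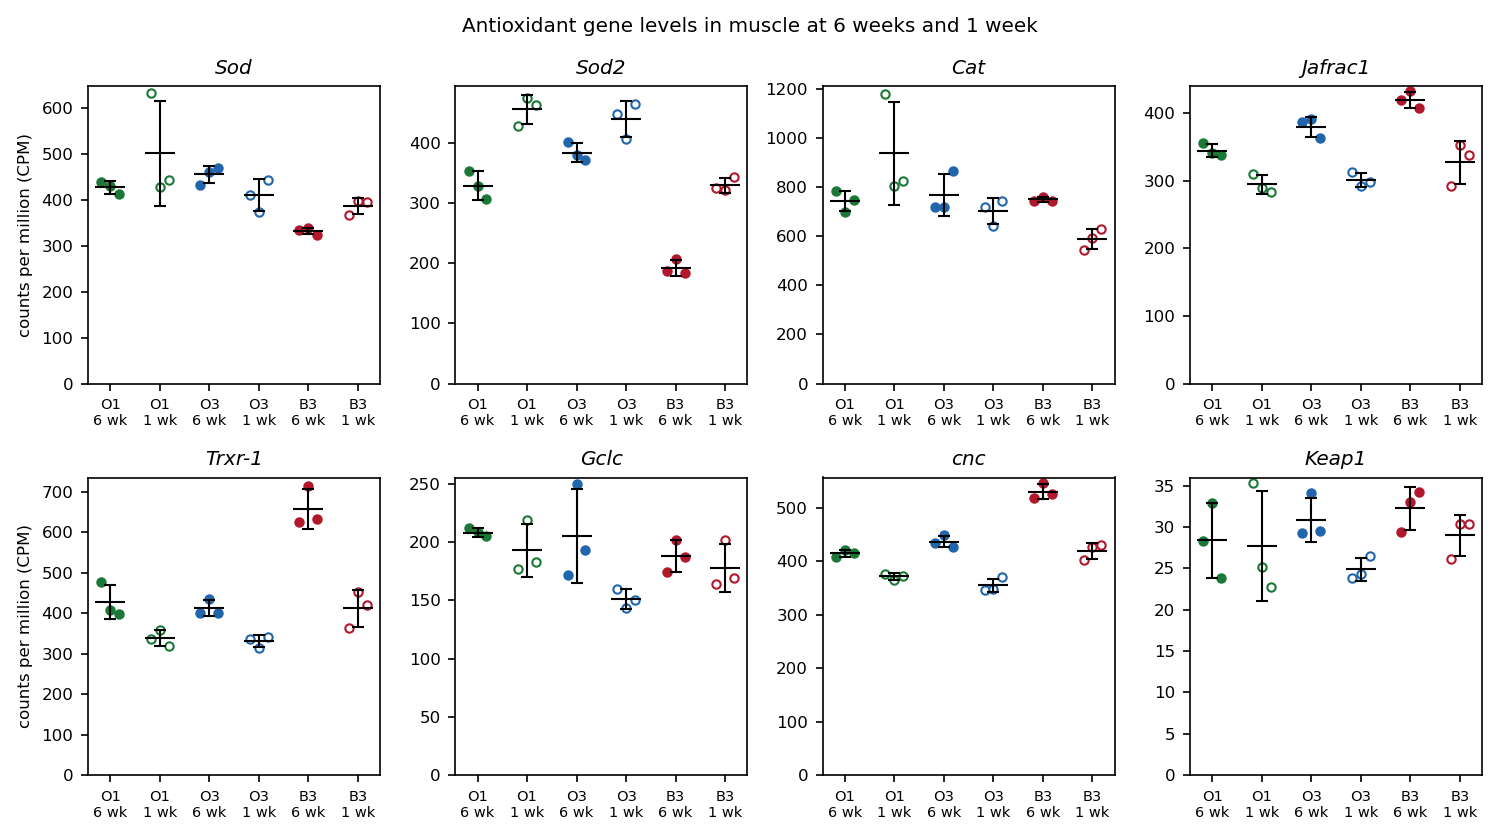
Level in CPM (y axis, from 0) of the 8 counted antioxidant genes in each library of the age experiment, by strain and age (x axis). Filled points are 6-week and open points 1-week libraries, and bars give the group mean ± SD (n = 3). Sod2 is lowest in B3 at 6 weeks (183 to 207 CPM) and Trxr-1 highest there (627 to 716 CPM).

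Sod2, which protects the mitochondrial matrix, had 354, 328 and 306 CPM in O1 at 6 weeks, against 429, 475 and 463 CPM at 1 week. In O3 it had 402, 380 and 371 CPM at 6 weeks, against 448, 407 and 464 CPM at 1 week. In B3 it had 187, 207 and 183 CPM at 6 weeks, against 325, 321 and 344 CPM at 1 week. The 2 ages did not overlap in any of the 3 strains, and the gap was widest in B3. The log2 change was -0.47 ± 0.0683 in O1 (SE, adjusted p = 0.000171), -0.19 ± 0.0681 in O3 (adjusted p = 0.0295) and -0.78 ± 0.0686 in B3 (adjusted p = 5.67e-07). The age change itself differed between strains: it was less negative by 0.31 ± 0.0964 in O1 than in B3 (adjusted p = 0.0457) and by 0.59 ± 0.0965 in O3 than in B3 (adjusted p = 0.00106). The call in O3 held in 6 of 12 alternative fits and was lost without 1-week library 1 or 3 or 6-week library 2 or 3 (adjusted p = 0.0800 to 0.104). The O1 against B3 difference held in 6 of 18 fits and was lost without any of 9 of the 12 libraries (adjusted p = 0.0587 to 0.112), while the O3 against B3 difference held in 18 of 18.

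Trxr-1, the reductase that feeds thioredoxin and the peroxiredoxins, had 477, 409 and 399 CPM in O1 at 6 weeks, against 337, 358 and 319 CPM at 1 week. It had 401, 436 and 400 CPM in O3 at 6 weeks, against 337, 315 and 342 CPM at 1 week, and 627, 716 and 634 CPM in B3 at 6 weeks, against 363, 452 and 420 CPM at 1 week. All 6-week libraries lay above all 1-week libraries of their strain. The log2 change was 0.34 ± 0.0878 in O1 (adjusted p = 0.0117), 0.32 ± 0.0877 in O3 (adjusted p = 0.0107) and 0.68 ± 0.0880 in B3 (adjusted p = 2.48e-05). The difference of these changes was -0.34 ± 0.124 for O1 minus B3 (adjusted p = 0.0866) and -0.36 ± 0.124 for O3 minus B3 (adjusted p = 0.0581), so neither passed the threshold. Of 18 alternative fits, 1 called the O1 difference (adjusted p = 0.0409 to 0.210 over the 18). The O3 difference was called in 4 of 18 (adjusted p = 0.0173 to 0.151). The call in O1 was lost without 1-week library 3 (adjusted p = 0.0520), without 6-week library 1 (adjusted p = 0.0598) and with the O1 libraries fitted alone (adjusted p = 0.0530).

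The transcription factor gene cnc was higher at 6 weeks too. It had 409, 422 and 415 CPM in O1 at 6 weeks, against 377, 365 and 373 CPM at 1 week. In O3 it had 435, 449 and 428 CPM at 6 weeks, against 347, 348 and 370 CPM at 1 week, and in B3 519, 547 and 527 CPM at 6 weeks, against 403, 427 and 431 CPM at 1 week. The ages did not overlap in any strain, with a log2 change of 0.16 ± 0.0397 in O1 (adjusted p = 0.00886), 0.30 ± 0.0397 in O3 (adjusted p = 4.6e-05) and 0.34 ± 0.0397 in B3 (adjusted p = 9.47e-06). With the O1 libraries fitted alone, the O1 change was 0.19 (adjusted p = 0.0520). The increase was smaller in O1 than in B3 by 0.18 on the log2 scale (-0.18 ± 0.0561, adjusted p = 0.0497), a call that held in 2 of 18 alternative fits and was lost without any 1 of the 12 libraries (adjusted p = 0.0595 to 0.135). The count covers the whole gene, so CncC and the shorter isoforms of cnc could not be separated. The repressor gene Keap1 was not called in any strain, with a log2 change of 0.03 ± 0.148 in O1, 0.31 ± 0.147 in O3, where the ages did not overlap, and 0.15 ± 0.148 in B3.

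Jafrac1, the main cytosolic peroxiredoxin, had 356, 341 and 338 CPM in O1 at 6 weeks, against 310, 289 and 284 CPM at 1 week. It had 388, 391 and 363 CPM in O3 at 6 weeks, against 313, 292 and 298 CPM at 1 week, and 420, 433 and 408 CPM in B3 at 6 weeks, against 292, 353 and 339 CPM at 1 week. The 6-week libraries were the higher ones in each strain without overlap. The log2 change was 0.23 ± 0.0625 in O1 (adjusted p = 0.0168), 0.34 ± 0.0624 in O3 (adjusted p = 0.000774) and 0.36 ± 0.0625 in B3 (adjusted p = 0.000347). In O1 the call was lost without 1-week library 2 (adjusted p = 0.0564), 1-week library 3 (adjusted p = 0.0674) or 6-week library 1 (adjusted p = 0.0614).

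Catalase differed in direction between strains. Cat had 784, 700 and 748 CPM in O1 at 6 weeks, against 1181, 807 and 826 CPM at 1 week, and 744, 762 and 746 CPM in B3 at 6 weeks, against 545, 594 and 628 CPM at 1 week. Every O1 library at 6 weeks lay below every O1 library at 1 week, and in B3 the order was the opposite. The log2 change was -0.33 ± 0.124 in O1 (adjusted p = 0.0705, not called) and 0.35 ± 0.124 in B3 (adjusted p = 0.0355), and the difference O1 minus B3 was -0.68 ± 0.176 (adjusted p = 0.0185). Without O1 library 1 of 1 week, the one at 1181 CPM, the difference was -0.48 (adjusted p = 0.0169), and without B3 library 1 of 1 week it was -0.63 (adjusted p = 0.0519). The B3 call held in 5 of 11 alternative fits, and leaving out any of 5 of the 6 B3 libraries ended it (adjusted p = 0.0710 to 0.131). In O3 Cat had 718, 719 and 867 CPM at 6 weeks, against 721, 643 and 745 CPM at 1 week, and these groups overlapped. The change differed between strains for 3 of the 8 genes in O1 minus B3 (14.3% of all tested genes) and for 1 in O3 minus B3 (17.6% of all tested genes).

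Sod was not called with age, and Gclc was called in O3. Sod, the cytosolic dismutase, had 439, 429 and 412 CPM in O1 at 6 weeks, against 632, 427 and 443 CPM at 1 week. In B3 it had 334, 338 and 324 CPM at 6 weeks, against 367, 397 and 396 CPM at 1 week. The log2 change was -0.23 ± 0.113 in O1, 0.15 ± 0.113 in O3 and -0.22 ± 0.113 in B3, and none was called, although the B3 ages did not overlap. Gclc, the catalytic subunit of the enzyme that limits glutathione synthesis, had 172, 250 and 193 CPM in O3 at 6 weeks, against 160, 143 and 150 CPM at 1 week (log2 change 0.44 ± 0.123, adjusted p = 0.0113). Without the O3 library at 250 CPM this change was 0.27 (adjusted p = 0.0574), and in O1 and B3 Gclc was not called.

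**Figure D2:**
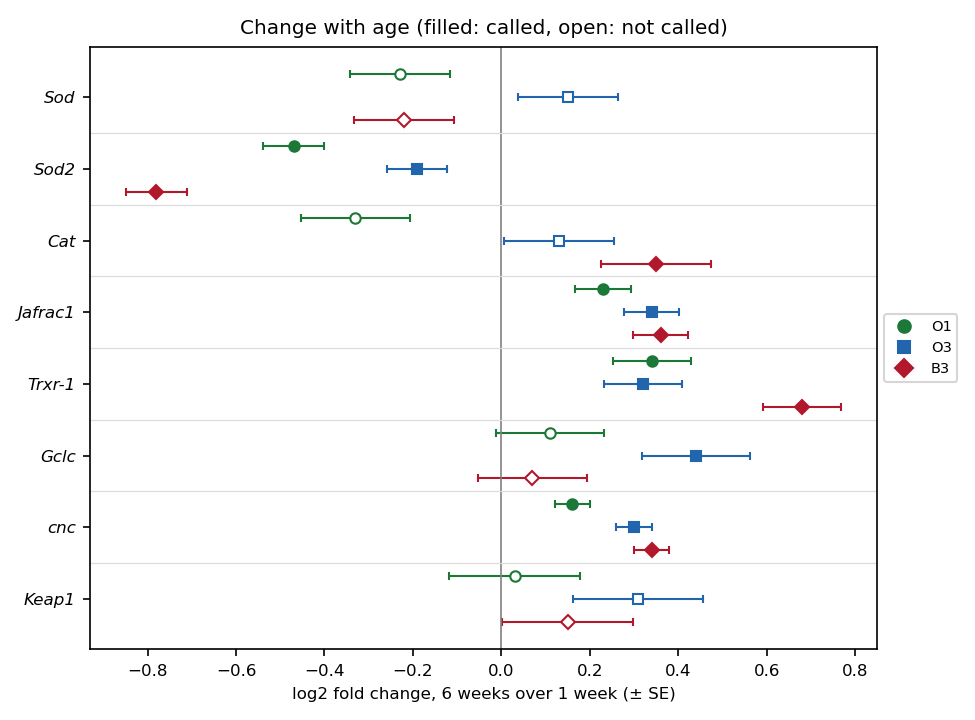
Log2 fold change of 6 weeks over 1 week (x axis, ± SE) for the 8 antioxidant genes (y axis) in O1, O3 and B3. Filled markers are called. Sod2 lies left of 0 and Trxr-1, cnc and Jafrac1 right of 0 in all 3 strains, while the Cat markers of O1 (-0.33) and B3 (0.35) lie on opposite sides.

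Tissue markers moved with age as well, and their part in these changes was not tested. The 11 muscle markers summed to 14437 to 15481 CPM in O1 at 6 weeks, against 23188 to 24193 CPM at 1 week. Of the 11, 9 were called lower and 1 higher. In O3 they summed to 12076 to 13289 CPM at 6 weeks, against 25754 to 30439 CPM at 1 week, with 10 of 11 called lower. In B3 they summed to 21114 to 23626 CPM at 6 weeks, against 25350 to 28097 CPM at 1 week. Of the 11, 7 were called lower and 2 higher in B3. The 12 gut markers summed to 3051 to 4163 CPM in B3 at 6 weeks, against 7439 to 10622 CPM at 1 week, with 9 of 12 called lower. In O1 these markers summed to 10199 to 12524 CPM at 6 weeks, against 12242 to 16389 CPM at 1 week, with 1 called lower. In O3 their sums were 4931 to 11316 CPM at 6 weeks, against 6108 to 10858 CPM at 1 week, with 2 called lower. Testis markers summed to 15.9 to 19.7 CPM in O3 at 6 weeks, against 17.4 to 574 CPM at 1 week, and all 9 tested ones were called lower. Of 7 neuron markers 1 was called lower in O1, 4 in O3 and 5 in B3, with sums of 660 to 759 CPM in B3 at 6 weeks, against 1028 to 1170 CPM at 1 week. Of 3 yolk protein genes 3 were called higher in O1, 2 in O3 and 3 in B3, with sums of 70.0 to 170 CPM in O1 at 6 weeks, against 5.09 to 17.8 CPM at 1 week. Of 6 tested fat body markers 4 were called higher in O3, of 7 hemocyte markers 3 in O3, and of 3 Malpighian tubule markers 3 were called lower in B3 and 2 higher in O3. Leaving out the 2 testis-rich libraries of a strain puts its 1-week group on 1 library that is assumed to vary like the other groups. In O3 Jafrac1 and cnc were then called with age, and the changes of Sod2 (-0.27, adjusted p = 0.0609), Trxr-1 (0.27, adjusted p = 0.197) and Gclc (0.45, adjusted p = 0.122) were not. In O1 the library left was the one at 632 CPM of Sod, which differed from the other 2 by a chi-square per degree of freedom of 98.3 and 79.7, against 13.4 between those 2. The testis markers of that library summed to 23.2 CPM, against 32.6 to 122 CPM in O1 at 6 weeks. Leaving out the testis-rich libraries thus reversed the testis difference between the O1 ages and did not remove it. The O1 changes of Trxr-1 (0.35, adjusted p = 0.0875), cnc (0.14, adjusted p = 0.129) and Jafrac1 (0.15, adjusted p = 0.256) were then not called, Sod2 was, and Sod (-0.56, adjusted p = 0.000521) and Cat (-0.67, adjusted p = 0.00145) were called lower.

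Between strains, Sod2 was higher and Trxr-1 and cnc were lower in O1 and O3 than in B3, at 1 week, at 6 weeks and in the separate libraries of the day course. At 1 week 3 of the 8 genes were called higher and 2 lower in O1, where 10.3% and 13.5% of all tested genes were called higher and lower. In O3 at 1 week 1 was called higher and 2 lower, where 19.3% and 16.7% of all tested genes were. At 6 weeks 2 were called higher and 3 lower in O1, where 19.8% and 24.5% of all tested genes were. In O3 at 6 weeks 2 were called higher and 2 lower, where 20.0% and 20.2% of all tested genes were. Over the day course 3 were called higher and 4 lower in O1, where 28.6% and 27.6% of all tested genes were, and 4 higher and 2 lower in O3, where 31.3% and 29.4% of all tested genes were. Within an experiment, the comparisons of O1 and of O3 share the B3 libraries. Reads that fell in no gene made up 7.11 to 12.5% in O1 and 12.0 to 16.5% in O3 over the day course, against 10.2 to 11.6% in B3. Their part in the strain differences was not tested.

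Sod2 ran from 391 to 498 CPM (median 447, n = 10) in O1 and from 353 to 443 CPM (median 390, n = 11) in O3 over the day course, against 236 to 294 CPM (median 270, n = 10) in B3. No O1 or O3 library overlapped with B3. The log2 difference was 0.75 ± 0.0402 for O1 (adjusted p = 3.09e-13) and 0.55 ± 0.0379 for O3 (adjusted p = 1.34e-11). In the age experiment, whose libraries are listed above, the difference was 0.47 ± 0.0683 for O1 and 0.41 ± 0.0683 for O3 at 1 week (adjusted p = 0.000212 and 0.000454). At 6 weeks it was 0.78 ± 0.0686 for O1 and 1.00 ± 0.0688 for O3 (adjusted p = 8.1e-07 and 6.47e-08). These calls held in every alternative fit.

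Trxr-1 ran from 326 to 379 CPM (median 349) in O1 and from 322 to 395 CPM (median 347) in O3 over the day course, against 460 to 549 CPM (median 511) in B3. Again no O1 or O3 library reached the B3 range. The log2 difference was -0.51 ± 0.0401 for O1 (adjusted p = 1.85e-10) and -0.53 ± 0.0367 for O3 (adjusted p = 1.9e-11). At 6 weeks it was -0.62 ± 0.0879 for O1 (adjusted p = 5.75e-05) and -0.68 ± 0.0879 for O3 (adjusted p = 2.53e-05). At 1 week it was -0.28 ± 0.0878 for O1 (adjusted p = 0.0300) and -0.31 ± 0.0877 for O3 (adjusted p = 0.0150), and these calls held in 5 of 12 and 9 of 12 alternative fits. The O1 call at 1 week was lost without B3 library 2 or 3 or O1 library 1 or 3 (adjusted p = 0.0586 to 0.139), and the O3 call without B3 library 2 (adjusted p = 0.0740) or O3 library 2 (adjusted p = 0.0606). Without the testis-rich libraries neither was called (adjusted p = 0.152 in O1 and 0.216 in O3), nor was O1 with the groups compared alone (adjusted p = 0.116).

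The cnc gene ran from 280 to 328 CPM (median 310) in O1 and from 254 to 333 CPM (median 320) in O3 over the day course, against 328 to 380 CPM (median 365) in B3. The O1 libraries lay below the lowest B3 library, and the O3 range reached just into the B3 range. The log2 difference was -0.25 ± 0.0388 for O1 (adjusted p = 9.04e-06) and -0.22 ± 0.0358 for O3 (adjusted p = 1.54e-05). It was -0.18 ± 0.0397 for O1 and -0.24 ± 0.0397 for O3 at 1 week (adjusted p = 0.00483 and 0.000408), and -0.35 ± 0.0397 for O1 and -0.28 ± 0.0396 for O3 at 6 weeks (adjusted p = 7.02e-06 and 5.29e-05). The 1-week calls were lost without the testis-rich libraries (-0.16 in O1, adjusted p = 0.0882, and -0.19 in O3, adjusted p = 0.0528), and that of O1 also with the groups compared alone (adjusted p = 0.0557). Keap1 was not called in any of the 6 strain comparisons, with log2 differences of -0.22 to 0.10. For O3 against B3 over the day course it was called higher in 8 of 26 alternative fits (adjusted p = 0.0180 to 0.176 over the 26).

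**Figure D3:**
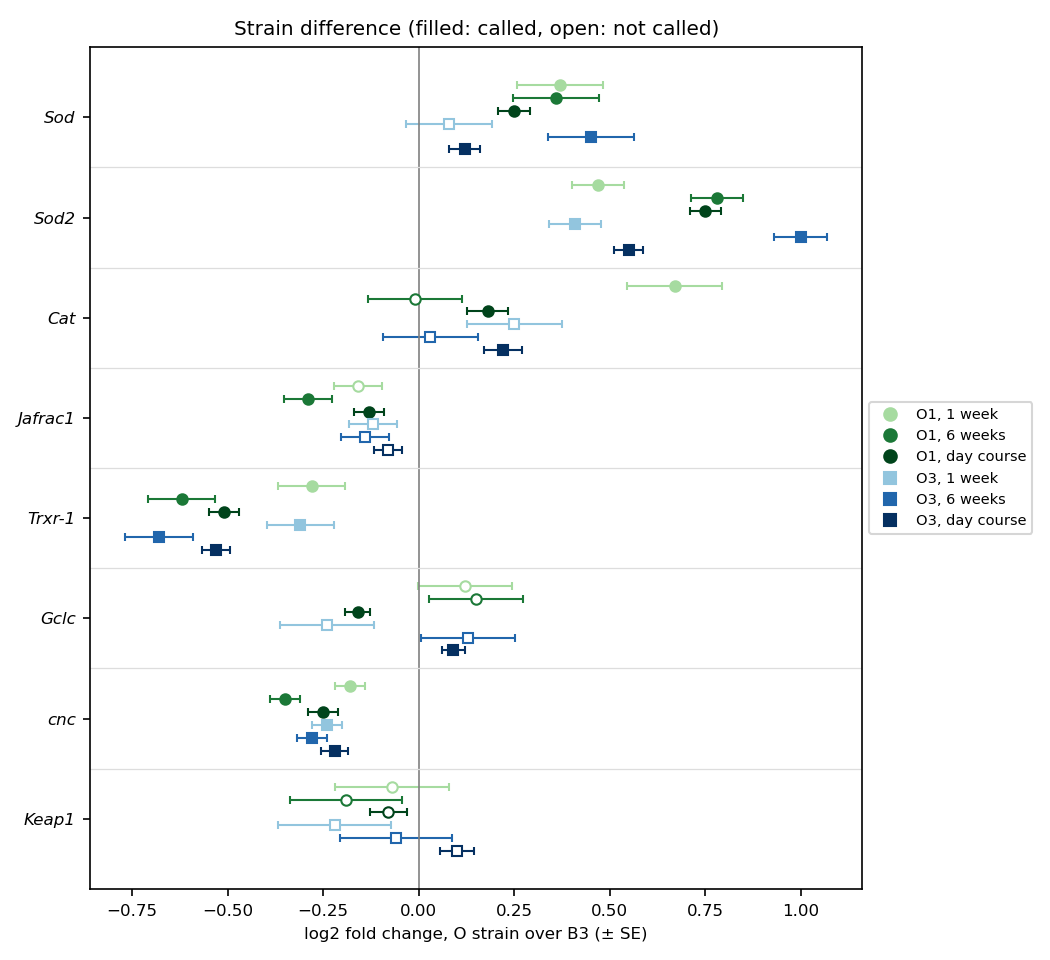
Log2 fold change of O1 or O3 over B3 (x axis, ± SE) for the 8 antioxidant genes (y axis) at 1 week, at 6 weeks and over the day course. Filled markers are called. All 6 Sod2 markers lie right of 0 (0.41 to 1.00), and all 6 markers of Trxr-1 (-0.68 to -0.28) and of cnc (-0.35 to -0.18) lie left of it.

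Sod ran from 385 to 484 CPM (median 403) in O1 and from 339 to 420 CPM (median 374) in O3 over the day course, against 322 to 372 CPM (median 348) in B3. The O1 and B3 libraries did not overlap, and those of O3 and B3 did. The log2 difference was 0.25 ± 0.0424 for O1 (adjusted p = 2.5e-05) and 0.12 ± 0.0396 for O3 (adjusted p = 0.0110). At 6 weeks Sod was higher by 0.36 ± 0.113 in O1 (adjusted p = 0.0190) and by 0.45 ± 0.113 in O3 (adjusted p = 0.00504), the O1 call being lost without B3 library 3 (adjusted p = 0.0578) or O1 library 1 (adjusted p = 0.0573). At 1 week the O1 value was 0.37 ± 0.113 (adjusted p = 0.0274), and it was 0.17 (adjusted p = 0.0738) without O1 library 1, the one at 632 CPM. The call was also lost without any 1 of the 3 B3 libraries (adjusted p = 0.0591 to 0.0954).

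Cat ran from 493 to 754 CPM (median 646) in O1 and from 514 to 802 CPM (median 607) in O3 over the day course, against 486 to 650 CPM (median 543) in B3. The ranges overlapped widely, and the log2 difference was 0.18 ± 0.0540 for O1 (adjusted p = 0.00621) and 0.22 ± 0.0504 for O3 (adjusted p = 0.000692). In the age experiment Cat was higher in O1 than in B3 at 1 week, by 0.67 ± 0.125 (adjusted p = 0.00138), and by 0.47 (adjusted p = 0.00167) without the O1 library at 1181 CPM. At 6 weeks the strains differed by -0.01 ± 0.124 for O1 and 0.03 ± 0.124 for O3, and neither was called.

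Jafrac1 was lower in O1 than in B3 at 6 weeks (log2 difference -0.29 ± 0.0624, adjusted p = 0.00199) and over the day course, where it ran from 278 to 333 CPM (median 307) in O1, against 282 to 376 CPM (median 338) in B3 (-0.13 ± 0.0401, adjusted p = 0.00974). The day-course ranges overlapped. In O3 it was not called at 1 week, at 6 weeks or over the day, with log2 differences of -0.14 to -0.08. As a mean over the day course, Gclc went opposite ways in the O strains. It ran from 153 to 199 CPM (median 169) in O1 and from 168 to 267 CPM (median 230) in O3, against 181 to 219 CPM (median 188) in B3. The log2 difference was -0.16 ± 0.0323 for O1 (adjusted p = 0.000245) and 0.09 ± 0.0299 for O3 (adjusted p = 0.0110). By group means O1 lay below B3 at each time. The O3 mean lay above B3 at ZT0 and ZT18, near it at ZT12 and below it at ZT6. Gclc was not called between strains in the age experiment.

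The strains also differed in tissue markers, whose part in the strain differences was not tested. At 6 weeks the 12 gut markers summed to 10199 to 12524 CPM in O1 and 4931 to 11316 CPM in O3, against 3051 to 4163 CPM in B3, with 12 and 10 of them called higher. At 6 weeks 10 of 11 muscle markers were called lower and 1 higher in each O strain than in B3. At 1 week 3 were called lower and 1 higher in O1, and 1 lower and 5 higher in O3. Over the day course 4 were called lower and 5 higher in O1, and 7 lower and 3 higher in O3. Their day-course sums were 18261 to 24192 CPM in O1 and 15647 to 18871 CPM in O3, against 19367 to 22683 CPM in B3. At 1 week gut markers summed to 12242 to 16389 CPM in O1 and 6108 to 10858 CPM in O3, against 7439 to 10622 CPM in B3. Of the 12, 3 were called higher in O1 and none in O3. The highest sum was that of O1 library 1, which was also the 1-week O1 library with the most Cat and Sod RNA. Over the day course 5 of 12 gut markers were called lower and 3 higher in O1, and 7 lower and 3 higher in O3. Accessory gland markers summed to 661 ± 620 CPM in O3 at 1 week, against 24.3 ± 21.5 CPM in B3 (SD, n = 3 each), with 6 of 7 called higher. In O1 at 6 weeks 8 of 9 testis markers (32.6 to 122 CPM in O1, against 13.9 to 18.2 CPM in B3) and 3 of 3 yolk protein genes (70.0 to 170 CPM in O1, against 13.6 to 15.1 CPM in B3) were called higher. Of 7 hemocyte markers 2 were called lower in O1 and 4 in O3 at 1 week. At 6 weeks 2 were called higher and 2 lower in O1, and 3 higher and 2 lower in O3. Over the day course 3 were called lower in O1, and 2 higher and 2 lower in O3. Of 7 neuron markers 3 were called higher in O1 and 4 in O3 over the day course, and none lower. In the age experiment 1 or 2 were called higher in each strain comparison, and 1 lower in O3 at 6 weeks. Of 7 fat body markers 2 were called lower and 1 higher in O1 over the day course, and 3 lower in O3. Of 3 Malpighian tubule markers 2 were called lower and 1 higher in O1 over the day course, and 2 lower in O3. At 6 weeks 1 was called higher in each.

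By time of day, Gclc was called in 4 of the 5 genotypes, Keap1 in 3 and Cat, Jafrac1 and cnc in 2 each. Profiles were tested jointly over the 4 times, and the amplitude is the highest minus the lowest group mean of log2 CPM. In O1 1 of the 8 genes was called (10.9% of all tested genes), in O3 4 (17.0% of all tested genes), and in B3 1 (11.2% of all tested genes). Markers of other tissues were called by time of day as well, and their part was not tested: of 7 hemocyte markers 4 in O1, 4 in O3, 6 in B3, 1 in mhc>timeless and 4 in mhc, and of 12 gut markers 3 in O1, 5 in O3, 7 in B3, 7 in mhc>timeless and 2 in mhc. Of 7 fat body markers 2 were called in O1, 2 in O3, 3 in B3, 5 in mhc>timeless and 1 in mhc, and 5 of 10 testis markers were called in mhc>timeless.

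Gclc had 232, 232 and 230 CPM in O3 at ZT0, 171 and 168 CPM at ZT6, 176, 182 and 195 CPM at ZT12 and 267, 249 and 257 CPM at ZT18. All values of ZT18 and of ZT0 lay above those of ZT6 and ZT12. The O3 amplitude was 0.60 (adjusted p = 2.13e-07). In B3 Gclc had 189, 192 and 207 CPM at ZT0, 184 and 185 CPM at ZT6, 181, 187 and 183 CPM at ZT12 and 215 and 219 CPM at ZT18, an amplitude of 0.24 (adjusted p = 0.0342), a call lost without either ZT18 library (adjusted p = 0.148 and 0.176), either ZT6 library or ZT12 library 1 or 3 (adjusted p = 0.0543 to 0.0774). In O1 the amplitude was 0.28 (adjusted p = 0.0898), with 199 CPM in the single ZT18 library. The daily profile of Gclc differed between O3 and B3 (adjusted p = 0.0406, where 1.55% of all tested genes were called), a call that held in 10 of 26 alternative fits and was lost without any of 16 of the 21 libraries (adjusted p = 0.0537 to 0.0891). None of the 8 genes was called for a profile difference between O1 and B3 (edgeR, 1.40% of all tested genes), although the unadjusted p was under 0.05 for Sod (0.0437) and Cat (0.0159).

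Keap1 in O3 had 26.7, 24.1 and 24.9 CPM at ZT0, 20.6 and 18.4 CPM at ZT6, 25.3, 27.1 and 25.9 CPM at ZT12 and 21.7, 25.5 and 20.0 CPM at ZT18 (amplitude 0.42, adjusted p = 0.00932). The lowest library was one of ZT6, the ZT18 libraries overlapped with those of ZT6 and ZT0, and the call was lost without ZT6 library 3 (adjusted p = 0.0938). In O1 its amplitude was 0.36 (adjusted p = 0.0719) and in B3 0.29 (adjusted p = 0.0659). Cat was highest at ZT6 in O1, with 746, 754 and 709 CPM, and lowest in its single ZT18 library, with 493 CPM (amplitude 0.58, adjusted p = 0.0305), a call lost without ZT12 library 1 or ZT6 library 1 or 2 (adjusted p = 0.0514 to 0.0683). In O3 Cat had an amplitude of 0.34 with its peak at ZT6 (adjusted p = 0.0361), a call that held in 7 of 16 alternative fits and was lost without any of 7 of the 11 libraries (adjusted p = 0.0504 to 0.155). Jafrac1 in O3 had 311 and 372 CPM at ZT6, its peak, and 284, 285 and 265 CPM at ZT18, its trough (amplitude 0.29, adjusted p = 0.00968). Sod2, Trxr-1 and Sod were not called for time of day in any of the 5 genotypes.

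**Figure D4:**
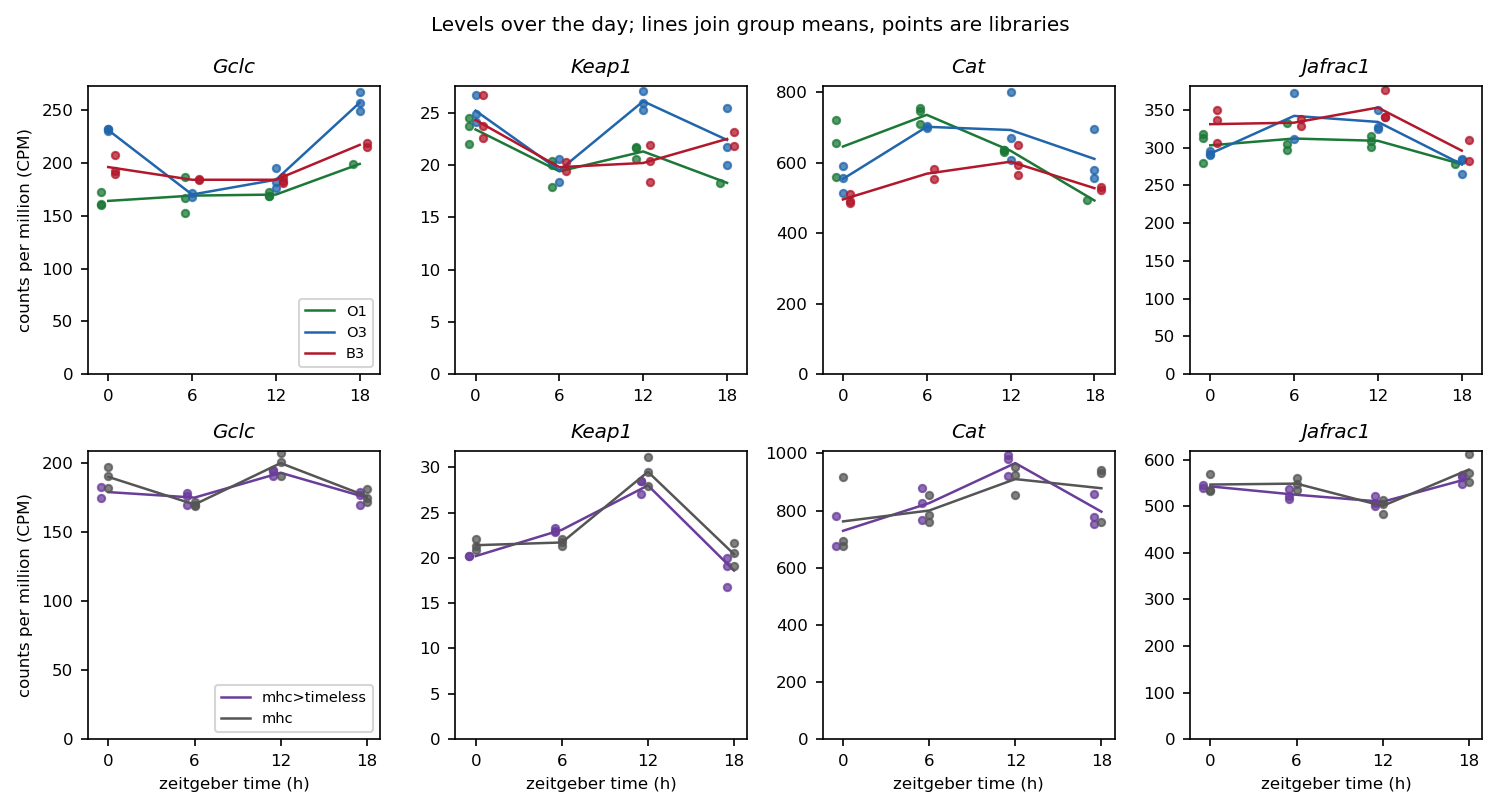
Level in CPM (y axes, from 0) of Gclc, Keap1, Cat and Jafrac1 over zeitgeber time (x axis, hours) in O1, O3 and B3 (top) and in mhc>timeless and mhc (bottom). Points are libraries and lines join group means. Gclc peaks at ZT18 in O3 (249 to 267 CPM), and Keap1 peaks at ZT12 in mhc>timeless (27.1 to 28.5 CPM) and mhc (27.9 to 31.1 CPM).

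Between mhc>timeless and mhc, 1 of the 8 genes was called over the day. Trxr-1 was higher, with 399 to 462 CPM (median 431, n = 11) in mhc>timeless, against 381 to 430 CPM (median 405, n = 12) in mhc. The ranges overlapped, and the log2 difference was 0.09 ± 0.0218 (adjusted p = 0.00550). Among all tested genes 8.68% were called higher and 9.75% lower. The mhc libraries of ZT0 to ZT12 were sequenced less deeply than all others, and with ZT18 alone, where libraries held 124 to 139 M counts in mhc>timeless and 148 to 168 M in mhc, the Trxr-1 difference was 0.06 (adjusted p = 0.716) and 14 genes in all were called. The ZT18 fit also holds fewer libraries, so it cannot separate the smaller number of libraries from the difference in depth. The other 7 genes had log2 differences of -0.05 to 0.06. Of 7 hemocyte markers 6 were called higher in mhc>timeless, with sums of 993 to 1158 CPM in mhc>timeless, against 880 to 1044 CPM in mhc, and 4 of 8 accessory gland markers were called higher, at sums of at most 60.1 CPM in mhc>timeless and 10.2 CPM in mhc. Their part in the Trxr-1 difference was not tested.

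In both transgene genotypes Keap1 was highest at ZT12. It had 27.1, 28.5 and 28.5 CPM at ZT12 and 16.8, 19.1 and 20.0 CPM at ZT18 in mhc>timeless (amplitude 0.59, adjusted p = 3.07e-06), against 31.1, 27.9 and 29.5 CPM at ZT12 and 19.1, 21.6 and 20.5 CPM at ZT18 in mhc (amplitude 0.53, adjusted p = 4.78e-06). No ZT12 library overlapped with a library of another time in either genotype. Gclc was called too, with an amplitude of 0.14 in mhc>timeless (adjusted p = 0.0163, lost without any 1 of the 3 ZT12 libraries, adjusted p = 0.0506 to 0.0901) and 0.23 in mhc (adjusted p = 0.000389), and its peak lay at ZT12 in both. The profile of cnc peaked at ZT12 with an amplitude of 0.17 in mhc>timeless (adjusted p = 0.0443) and 0.18 in mhc (adjusted p = 0.00733). The call of cnc was lost without any of 8 of the 11 libraries in mhc>timeless (adjusted p = 0.0512 to 0.238) and without ZT12 library 1 in mhc (adjusted p = 0.0673). Jafrac1 was called in mhc, with 613, 553 and 571 CPM at ZT18 and 513, 506 and 484 CPM at ZT12 (amplitude 0.21, adjusted p = 0.00475), and not in mhc>timeless (amplitude 0.13, adjusted p = 0.0696). In all, 3 of the 8 genes were called in mhc>timeless (19.1% of all tested genes) and 4 in mhc (22.6% of all tested genes). In mhc the ZT18 libraries held 148 to 168 M counts, against 53.1 to 71.9 M at the other times. Depth and ZT18 therefore cannot be told apart in mhc. Without ZT18 the same 4 genes were called for time of day in mhc. None was called for a profile difference between the genotypes (edgeR, 0.126% of all tested genes), and Sod alone had an unadjusted p under 0.05 (0.0191).

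Of the direct partners and paralogs of these genes, Gclm differed between the strains in every comparison of O1 or O3 with B3. Gclm, the modifier subunit that pairs with the Gclc protein, averaged 107 ± 7.31 CPM in O1 and 100 ± 8.15 CPM in O3 at 1 week, against 67.0 ± 8.63 CPM in B3 (SD, n = 3 each). The log2 difference from B3 was 0.68 ± 0.116 for O1 (adjusted p = 0.000728) and 0.58 ± 0.116 for O3 (adjusted p = 0.00185) at 1 week, and 0.74 ± 0.115 for O1 (adjusted p = 0.000131) and 0.68 ± 0.115 for O3 (adjusted p = 0.000262) at 6 weeks. Over the day course it was 0.35 ± 0.0679 for O1 (adjusted p = 0.000114) and 0.34 ± 0.0636 for O3 (adjusted p = 8.2e-05), while Gclc was lower in O1 there. Gclm was also called for time of day in O1, O3, mhc>timeless and mhc, with its peak at ZT12 in each (amplitudes 0.77, 0.68, 0.82 and 0.57).

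The mitochondrial peroxiredoxin gene Prx3 was not called with age or between strains, with 52.6 to 62.9 CPM as group means of the age experiment. Jafrac2, a peroxiredoxin of the secretory pathway, was higher at 6 weeks in O1 (0.52 ± 0.179, adjusted p = 0.0315) and O3 (0.56 ± 0.179, adjusted p = 0.0224) than in B3. Prx6005 rose with age in O3 (0.41 ± 0.103, adjusted p = 0.00621), by 0.48 ± 0.147 more than in B3 (adjusted p = 0.0364). CCS, the copper chaperone of Sod, rose with age in O3 (0.30 ± 0.0988, adjusted p = 0.0237). The CCS change in O3 was not called different from that in B3 (difference 0.12 ± 0.140, adjusted p = 0.577). The cnc partner maf-S rose with age in O3 (0.37 ± 0.0765, adjusted p = 0.00163) and had 0.19 ± 0.0768 in B3 (adjusted p = 0.0606). The paralog Trxr-2 averaged 0.0681 CPM in O3 at 6 weeks, against 3.68 CPM at 1 week, where 2 libraries carried testis markers. No fit without the testis-rich libraries is given here for these partners and paralogs.

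A list of 54 further antioxidant genes was read beside the 9. With age, 7 of its 52 tested genes were called higher and 10 lower in O1, where 10.4% and 12.4% of all tested genes were. In O3 16 were called higher and 15 lower, where 22.8% and 27.4% of all were, and in B3 12 and 12, where 21.8% and 20.0% of all were. The list's median log2 change was -0.08 in O1, 0.04 in O3 and -0.17 in B3, against -0.026, -0.002 and -0.028 over all tested genes. The strongest calls in O1 were Fer2LCH, the ferritin light chain (log2 change 0.71), the methionine sulfoxide reductases SelR (-0.53) and Eip71CD (-0.80), CG8993 (-0.52), the oxidase Duox (-0.62) and the glutathione peroxidase homolog PHGPx (0.58). In O3 they were Fer2LCH (0.76), the sestrin Sesn (-0.69), PHGPx (0.94), the thioredoxin-like Txl (0.67), SelR (-0.42) and Eip71CD (-0.70). In B3 they were Txl (1.27), CG8993 (-0.71), the malic enzyme Men-b (-1.76), Fer2LCH (0.78), the p62 homolog ref(2)P (0.95) and Duox (-0.84). Fer2LCH was the only gene named in all 3 strains.

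Between strains the same list held 12 genes called higher and 19 lower of 49 tested in O1 over the day course (28.6% and 27.6% of all tested genes), and 12 higher and 17 lower in O3 (31.3% and 29.4%). Its median log2 difference was -0.10 in O1 and -0.05 in O3, against 0.015 and 0.034 over all tested genes. The glutathione transferase gene GstD1, widely used as a readout of CncC activity, averaged 587 CPM in O1 and 451 CPM in O3, against 1999 CPM in B3, the largest differences of the list among the genes named here (-1.76 ± 0.0635, adjusted p = 3.64e-16, and -2.15 ± 0.0555, adjusted p = 7.66e-19). The other genes with the smallest p in O1 were the ferritin heavy chain Fer1HCH (-1.14), PHGPx (-0.84), Duox (-0.93), CG14407 (0.62), which RefSeq now names Grx5, and Fer2LCH (-0.80). In O3 they were PHGPx (-1.04), Fer1HCH (-0.98), Fer2LCH (-0.71), the catalase relative Irc (-0.58) and CG8993 (0.44). GstD1 was also lower in O1 (-1.33) and O3 (-1.80) than in B3 at 1 week, and so was PHGPx (-0.72 and -1.06). These gaps narrowed by 6 weeks. The age change of GstD1 was higher than in B3 by 0.76 in O1 (adjusted p = 0.00378) and 1.04 in O3 (adjusted p = 0.000387). For PHGPx it was higher by 0.86 in O1 (adjusted p = 0.00113) and 1.23 in O3 (adjusted p = 8.22e-05). In all, 15 of the 52 tested list genes differed from B3 in age change in O1 (14.3% of all tested genes) and 17 in O3 (17.6%).

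At 1 week the list held 10 genes called higher and 8 lower of 52 tested in O1 (10.3% and 13.5% of all tested genes) and 15 and 9 in O3 (19.3% and 16.7%). At 6 weeks it held 12 and 14 in O1 (19.8% and 24.5% of all tested genes) and 15 and 12 in O3 (20.0% and 20.2%). At 6 weeks Men-b, which supplies NADPH, averaged 368 CPM in O1 and 412 CPM in O3, against 127 CPM in B3 (1.53 ± 0.156, adjusted p = 3.01e-06, and 1.70 ± 0.157, adjusted p = 1.03e-06). CG14407 was higher by 1.01 in O1 and 1.34 in O3, and CG8993 by 0.71 in O1 and 1.07 in O3, while Txl was lower in both (-0.91 in O1 and -0.83 in O3).

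By time of day, 11 of the 49 tested list genes were called in O1 (10.9% of all tested genes), 21 in O3 (17.0%) and 11 in B3 (11.2%), and 17 of 51 in mhc>timeless (19.1%) and 17 in mhc (22.6%). The 5 genes of NADPH supply, Idh, Men, Men-b, Pgd and Zw, were called 4 times in O1, 5 times in O3, 3 times in B3 and 5 times each in mhc>timeless and mhc. Idh, isocitrate dehydrogenase, was highest at ZT0 in O1 (amplitude 0.72), O3 (0.58) and B3 (0.67). Sod3, the extracellular dismutase, peaked at ZT6 in O3 (amplitude 0.56, adjusted p = 0.000344) and B3 (0.55, adjusted p = 0.00112). Between mhc>timeless and mhc over the day, 6 of the 51 tested list genes were called higher and 4 lower (8.68% and 9.75% of all tested genes), with the smallest p in Prx2540-2 (-0.53 ± 0.0578, adjusted p = 5.22e-06), whose near-identical copy Prx2540-1 may share its reads.

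Across libraries Sod2 was inversely related to Trxr-1 and cnc, given here as a description. With log2 CPM centred on the mean of each experiment, Pearson's r over 72 libraries was 0.76 between Trxr-1 and cnc, -0.85 between Sod2 and Trxr-1 and -0.80 between Sod2 and cnc. These libraries share strain and age groups, and the value depended on the experiment: r between Sod2 and Trxr-1 was -0.91 over the age libraries, -0.84 over those of the day course and 0.32 over the transgene libraries. For Trxr-1 and cnc it was 0.95, 0.71 and -0.31 over the same sets, and for Sod2 and cnc -0.90, -0.77 and -0.33. Sod was positively related to Sod2 (0.67) and Cat (0.67).

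The genes most like each member over these 72 libraries were taken from 8098 genes. These were tested in all experiments and had a mean log2 CPM of at least 2 in each. Sod2 was closest to CG7712, a complex I subunit that RefSeq names ND-B14, and to SdhC, a succinate dehydrogenase subunit (r = 0.97 each). Trxr-1 was closest to the glutathione transferase gene GstD9 (0.93) and Fer2LCH (0.92), and cnc to emb (0.87), a nuclear exporter, and hyd (0.86), a ubiquitin ligase. Sod was closest to Fdh (0.88) and Ppat-Dpck (0.84), Jafrac1 to Inos (0.79) and CG7872 (0.75), and Cat to CG1444 (0.70) and CG5397 (0.67). Keap1 was closest to the acetyl-CoA carboxylase gene ACC (0.75) and to CG5508 (0.69), and Gclc to CG31810 (0.61) and Lapsyn (0.58). For 12 of these 16 genes r was lower within the transgene libraries than within the age libraries. There r was 0.17, against 0.97 over the age libraries, for cnc with emb, 0.10 against 0.95 for cnc with hyd, 0.11 against 0.96 for Jafrac1 with Inos, 0.35 against 0.94 for Trxr-1 with GstD9 and 0.45 against 0.99 for Sod2 with SdhC. For Keap1 with ACC it was 0.88 over the transgene libraries, against 0.45 over the age libraries.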

How the data were processed

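Skeletal muscle RNA was isolated with Trizol and made into libraries by Illumina's standard methods, per the labels' protocols. The deposited values are raw read counts per gene symbol, 1 table per library. The submitters' processing notes name build dm3 and the tools BWA, STAR and HTSeq without versions or roles; annotation and strand setting: not given in the sources used here. Rows that name no gene (no feature, ambiguous and the like) were left out of library sizes: no-feature reads were 20.8 to 27.9% of gene, no-feature and ambiguous reads in the 1-week libraries and 13.0 to 17.6% in the 6-week libraries.

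Tests used edgeR 4.0.16 in R 4.3.3: filterByExpr by group, TMM normalization, 1 model of group means per experiment (12445, 12295 and 12727 genes tested in the age, day and transgene experiments) and the quasi-likelihood F-test. P-values were adjusted by Benjamini and Hochberg across the whole table, with calls under 0.05. CPM use TMM library sizes, and log2 CPM a prior count of 0.5. An SE is the absolute log2 fold change over the square root of F. The calculation was tested on simulated data. Differences in age change or daily profile were tested as interactions. Alternatives were DESeq2 1.42.0, RLE size factors, no filter, a replicate block, the groups compared alone, each library left out, no testis-rich libraries, ZT18 alone and no ZT18. Replicates of a group differed beyond counting noise in all 67 pairs (chi-square per degree of freedom 12.1 to 181). The 9 genes, the related list and the markers were chosen with earlier results of these data known. Related genes are named as partners or paralogs, or for being among the up to 6 with the smallest p called in a comparison at a mean log2 CPM of at least 2; the 2 genes most like each member were taken by Pearson's r. No sequences were used here.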

Additional observations from a re-analysis of the deposited data

Results flagged for a closer look

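For 4 antioxidant genes the change with age or time of day differed between an O strain and B3. The age change of Sod2 was less negative than in B3 by 0.31 (log2) in O1 and by 0.59 in O3. The age change of Cat was -0.68 in O1 minus B3, with all O1 libraries lower and all B3 libraries higher at 6 weeks than at 1 week. The age change of cnc was -0.18 in O1 minus B3. The daily profile of Gclc in O3 differed from that in B3 with an adjusted p of 0.0406. Over the alternatives, the adjusted p ran from 6.39e-07 to 0.0190 for Sod2 in O3, from 0.00999 to 0.112 for Sod2 in O1, from 0.000459 to 0.0519 for Cat, from 0.00306 to 0.171 for cnc and from 0.000162 to 0.0891 for Gclc.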

How the results depend on the processing

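No called antioxidant gene changed sign under any alternative run. With the groups compared alone, the antioxidant genes called numbered 2 with age in O1, 2 for O1 against B3 at 1 week, 1 and 3 for the age change of O1 and of O3 against B3, 0 for time of day in O1 and 2 in B3. Without the filter they were 3 for O1 against B3 at 1 week and 1 for the age change of O1 against B3. Without the testis-rich libraries they were 2 with age in O3, 3 for O1 and 1 for O3 against B3 at 1 week. DESeq2 gave 2 for the age change of O3 against B3, 3 for time of day in O1, 4 in B3 and 6 in mhc>timeless, RLE size factors gave 2 for the age change of O3 against B3, and ZT18 alone gave 0 for mhc>timeless against mhc. Deviations of same-numbered libraries had a mean correlation of -0.02, 0.00 and 0.05 in the age, day and transgene experiments. Single values ran from -0.78 to 0.82 in the age experiment, and a mean cannot show whether some libraries were paired. The replicate block gave 1 call for the age change of O1 against B3 and 0 for time of day in B3.

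Leaving out each library in turn gave 2 to 4 calls with age in O1, 3 to 5 in O3 and 4 to 5 in B3. It gave 3 to 5 for O1 and 2 to 4 for O3 against B3 at 1 week, 4 to 5 and 4 to 4 at 6 weeks, 7 to 7 and 6 to 8 over the day, and 0 to 2 and 1 to 2 for the age change of O1 and O3. For time of day it gave 0 to 1 in O1, 2 to 5 in O3, 0 to 2 in B3, 1 to 3 in mhc>timeless and 3 to 5 in mhc. It gave 0 to 0, 0 to 1 and 0 to 0 for the profile differences of O1, O3 and mhc>timeless, and 1 to 2 for mhc>timeless against mhc. Leaving out the single O1 library of ZT18 gave no value.

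Counts over all genes moved by more than 1.5 times in some settings. With the groups compared alone, 1409 (2830 in the model of all groups) genes were called with age in O1, 1887 (2956) for O1 against B3 at 1 week, 573 (1341) for time of day in O1 and 46 (172) for its profile difference. Without the testis-rich libraries 2333 (6237) were called with age in O3, 1806 (4475) for O3 against B3 at 1 week and 1049 (2196) for the difference in age change. DESeq2 called 549 (172), 720 (190) and 609 (16) genes for the profile differences of O1, O3 and mhc>timeless, and the replicate block 105 (172) for O1. ZT18 alone gave 14 (2346) for mhc>timeless against mhc, and leaving out ZT18 gave 1688 (2871) for time of day in mhc. Leaving out each library in turn gave 4144 to 6556 (6237) genes with age in O3, 2706 to 5725 (4475) for O3 against B3 at 1 week, 1372 to 3463 (2093) for time of day in O3, and 86 to 210 (172), 98 to 1110 (190) and 2 to 49 (16) for the profile differences of O1, O3 and mhc>timeless. The causes were not tested, beyond fewer libraries entering some of these fits. At these depths a count of 0 allows up to 0.194 CPM, and the lowest value of a counted antioxidant gene was 16.8 CPM, for Keap1.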
